A study of Mus musculus with 10 samples.

Results

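The T and natural killer (NK) cell genes described here are 31 genes chosen by symbol as genes of these cells, and all 31 were among the 24421 gene symbols counted. By role they were the T cell receptor chains Cd3e, Cd3d, Cd3g and Cd247, the coreceptors Cd4, Cd8a and Cd8b1, the receptor-proximal signalling genes Lck, Zap70, Lat, Themis, Ubash3a, Sh2d1a, Txk and Trat1, the surface and costimulatory receptors Cd2, Cd5, Cd6, Cd27, Cd28, Icos, Ctla4 and Il7r, the transcription factors Foxp3, Tcf7, Lef1, Bcl11b and Gata3, and the cytotoxic and NK genes Nkg7, Prf1 and Klrd1. RNA was sequenced from inguinal subcutaneous white fat of wild-type C57BL/6J mice, taken on the left hindlimb side 70 days after treatment. The FLASH group (4 libraries) had received 33.3 Gy of electrons at ultra-high dose rate, the CONV group (3 libraries) had received 33.3 Gy of electrons from the same accelerator set to its conventional mode, and the sham group (3 libraries) had not been irradiated. All 10 libraries were labelled batch 1. The labels give no sex or age of the mice and do not say that each library came from a separate animal, so p-values measure only the spread between these samples.

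A T cell recognises peptide through a receptor whose antigen-binding chains signal through the CD3 chains and the zeta chain, encoded by Cd247. The coreceptors CD4 and CD8 bring the kinase LCK to the engaged receptor, LCK phosphorylates the CD3 and zeta chains, ZAP-70 binds there, and the adaptor LAT passes the signal on. White fat holds resident regulatory and conventional T cells and NK cells among its macrophages, and the mouse inguinal fat pad encloses a lymph node that is packed with T and B cells.

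The start sites of Cd3e, Cd3d and Cd3g lie together on chromosome 9 and that of Cd247 on chromosome 1, and the 250 bases before each RefSeq start (GRCm38.p6, 5′ to 3′ on the gene's strand) are shown because these 4 genes encode the signalling chains of 1 receptor and because Cd247 differed from the other 3 in the values below. Capitals mark matches to the core letters of 4 factor families of T cell genes: AGGAAG for the ETS family, TGTGGT for the RUNX family, CTTTGA for the TCF/LEF family and AGATAA for the GATA family, each searched on both strands with no overlap between their letters.
Cd3e, chr9:45009612-45009861, minus strand: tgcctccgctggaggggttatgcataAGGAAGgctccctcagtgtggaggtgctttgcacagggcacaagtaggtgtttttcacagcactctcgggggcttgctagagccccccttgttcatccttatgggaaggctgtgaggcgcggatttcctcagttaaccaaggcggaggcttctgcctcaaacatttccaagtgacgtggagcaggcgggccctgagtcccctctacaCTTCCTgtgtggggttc
Cd3d, chr9:44981536-44981785, plus strand: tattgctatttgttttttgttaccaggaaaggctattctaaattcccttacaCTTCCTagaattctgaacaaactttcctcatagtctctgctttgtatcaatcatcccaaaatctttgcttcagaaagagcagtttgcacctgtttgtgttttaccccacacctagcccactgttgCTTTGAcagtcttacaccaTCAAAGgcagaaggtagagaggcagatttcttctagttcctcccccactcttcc
Cd3g, chr9:44980432-44980681, minus strand: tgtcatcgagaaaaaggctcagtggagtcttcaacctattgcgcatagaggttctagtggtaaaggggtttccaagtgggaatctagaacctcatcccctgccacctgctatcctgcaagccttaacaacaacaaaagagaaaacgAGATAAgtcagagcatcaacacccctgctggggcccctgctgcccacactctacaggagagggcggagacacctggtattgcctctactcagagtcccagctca
Cd247, chr1:165788431-165788680, plus strand: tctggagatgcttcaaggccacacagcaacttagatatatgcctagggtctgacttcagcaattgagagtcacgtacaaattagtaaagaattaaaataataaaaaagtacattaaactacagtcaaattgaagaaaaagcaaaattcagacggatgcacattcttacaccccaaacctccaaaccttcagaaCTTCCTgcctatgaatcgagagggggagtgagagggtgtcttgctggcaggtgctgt
The Cd3e window held the ETS letters at 2 places, starting 224 and 17 bases before the start. The Cd3d window held 1 ETS match and a pair of TCF/LEF matches, the Cd3g window 1 GATA match and the Cd247 window 1 ETS match, 57 bases before its start. Over the 33 windows of the 23 members found in the RefSeq table, the ETS letters were present in 48.5% (16 windows of 14 genes), against 29.5% of all 32851 windows of the same length. The other shares were 18.2% against 14.0% for RUNX, 18.2% against 13.8% for TCF/LEF and 9.09% against 9.99% for GATA. Such matches describe the letters in these windows and are not evidence of binding. Cd4, Cd8b1, Sh2d1a, Cd2, Cd6, Cd28, Icos and Klrd1 were not matched. In the GENCODE M21 annotation of GRCm38 the start sites of Cd3d and Cd3g were 1355 bases apart and that of Cd3e lay 27841 bases from that of Cd3d. Other members also neighboured each other: Cd8a and Cd8b1 on chromosome 6, Cd5 and Cd6 on chromosome 19, and Cd28, Ctla4 and Icos on chromosome 1.

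Counts assigned to genes were 22387877 to 36032027 per library, and at these depths a count of 3 equals 0.0908 to 0.116 CPM (counts per 1000000 gene counts after TMM scaling). Such floors and the binomial intervals below cover counting error only. FLASH replicate 3 and CONV replicate 2 stood apart: their mean over 18 B cell and lymph node stroma genes, none of them a T or NK cell gene, was 6.79 and 7.25 log2 units above that of the highest sham library, and the other 5 irradiated libraries lay between −0.544 and 0.646 from it. Summed over that list, these 2 libraries held 2950 and 3740 CPM, with 16 of 18 genes detected, against 10.2 to 37.9 CPM and 13 to 15 genes detected in the other 8. Glycam1 and Chst4, expressed in the high endothelial venules of lymph nodes, had 955 and 118 counts in FLASH replicate 3 and 4303 and 221 in CONV replicate 2, and at most 1 count in any other library. Ccl21a and Ccl19 were at 0 in all 10 libraries. Adipocyte genes (12 of 12 detected) summed to 4450 and 3840 CPM in these 2 libraries and to 19600 to 26900 CPM in the other 8. Each result below is given with all 10 libraries and with the 8 that remain without this pair (sham n = 3, FLASH n = 3, CONV n = 2).

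The T and NK cell genes were abundant in FLASH replicate 3 and CONV replicate 2 and low elsewhere. Summed over the 31 genes, the levels were 41.7, 28.3 and 28.6 CPM in sham replicates 1 to 3, 31.2, 27.7, 1970 and 49.7 CPM in FLASH replicates 1 to 4, and 36.7, 1330 and 35.7 CPM in CONV replicates 1 to 3. All 31 genes were higher in both of these libraries than in each of the other 8, while the sums of the other 8 overlapped between the 3 groups. The share of all genes with this pattern was not computed. It was not particular to the members: 29 of 30 further T cell receptor signalling genes and 19 of 20 further cytotoxic effector and NK receptor genes had it. Among macrophage genes 0 of 10 had it, and among adipocyte genes 0 of 12. FLASH replicate 3 exceeded the mean of the other FLASH libraries by a median of 85.6-fold over the 31 genes (5.44-fold for Gata3 to 239-fold for Cd8b1), and CONV replicate 2 exceeded the mean of the other CONV libraries by a median of 41.2-fold (8.35-fold for Gata3 to 120-fold for Lef1) over the 29 genes with more than 3 counts in those libraries together. In bulk tissue, more cells of a type and more RNA per cell cannot be told apart. The 31 genes gave only 756 to 1609 counts in all in each of the other 8 libraries, so single genes there rest on few counts.

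**Figure D1:**
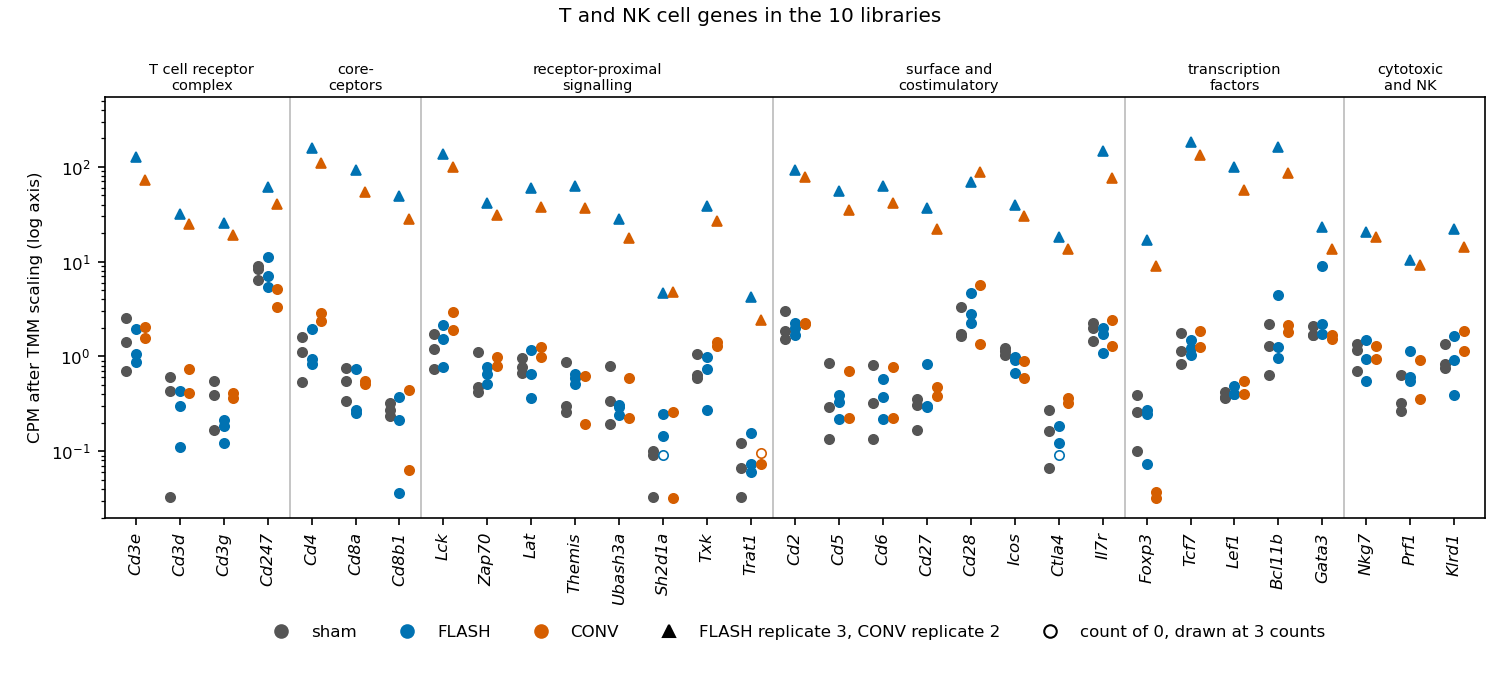
CPM after TMM scaling (log axis) of the 31 T and NK cell genes, grouped by role, in the 10 libraries; 1 symbol per library, triangles for FLASH replicate 3 and CONV replicate 2, open circles for a count of 0 drawn at the level of 3 counts. The triangles lie above all circles for every gene, and the circles of the 3 groups share the same range for most genes.

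Among the T cell receptor chains, Cd3e, the CD3 epsilon chain found on all T cells, stood at 2.52, 1.43 and 0.706 CPM in sham replicates 1 to 3. The 4 FLASH libraries, in replicate order, held 0.878, 1.06, 126 and 1.95 CPM and the 3 CONV libraries 1.57, 71.8 and 2.02 CPM. Apart from the pair, the values of both irradiated groups lay inside the sham range. Cd3g, the gamma chain, had 0.547, 0.390 and 0.168 CPM in sham, 0.212, 0.183, 25.5 and 0.124 CPM in FLASH and 0.416, 19.2 and 0.368 CPM in CONV. Without the pair its CONV values both lay above all 3 FLASH values. Cd247 was the exception in level: it had 8.44, 6.35 and 8.94 CPM in sham, 11.2, 5.38, 60.8 and 7.04 CPM in FLASH and 5.19, 40.5 and 3.35 CPM in CONV. Its CONV values without replicate 2 lay below every sham and FLASH value. Per kilobase of exon Cd247 was also the highest of the 31 genes in sham (1.48 ± 0.258 CPM per kb, SD, n = 3, against 0.381 ± 0.224 for Cd3e), while in the rich pair it ranked 17 and 18 of 31. Exons of Cd247 (chr1:165788681-165877277) share 3007 bases with exons of Pou2f1, the widely expressed factor OCT1, on the opposite strand. Pou2f1 stood at 81.5, 82.1 and 104 CPM in sham, 74.1, 83.1, 179 and 98.9 CPM in FLASH and 86.7, 167 and 67.5 CPM in CONV. FLASH replicate 1, with the highest Cd247 outside the pair, had less Pou2f1 than any sham library. CONV replicate 3 had the lowest value of both genes, and both were highest in the pair. No source used here gives the strand setting of the counting, so reads of these 2 genes may not be separated. The part of Pou2f1 in the Cd247 values was not tested. Cd3d, the delta chain, ranged from 0.0325 to 0.735 CPM in the 8 libraries and reached 31.7 and 24.7 CPM in the pair.

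The coreceptor Cd4, which marks helper and regulatory T cells, stood at 1.61, 1.11 and 0.538 CPM in sham. It had 0.939, 0.842, 157 and 1.95 CPM in FLASH and 2.88, 109 and 2.35 CPM in CONV. All 3 CONV libraries were above all sham libraries, and FLASH overlapped sham. Cd8a, the alpha chain of the cytotoxic T cell coreceptor, stood at 0.759, 0.553 and 0.336 CPM in sham, 0.273, 0.256, 92.5 and 0.741 CPM in FLASH and 0.512, 54.2 and 0.552 CPM in CONV. Apart from the pair the CONV values lay within the sham range, and 2 of 3 FLASH values below it. Cd8b1, the beta chain, had 0.0366 to 0.441 CPM in the 8 libraries, and 49.2 and 27.9 CPM in the pair. The coreceptors had the largest excess in the pair of any role, with medians of 219-fold and 102-fold over the other libraries of their group.

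Of the receptor-proximal genes, Lck, the kinase that starts the receptor signal, had 1.73, 1.20 and 0.739 CPM in sham, 1.51, 0.768, 135 and 2.16 CPM in FLASH and 1.92, 101 and 2.94 CPM in CONV. Every CONV library was above every sham library, with the sham and FLASH ranges overlapping. Zap70, the kinase that binds the phosphorylated chains, stood at 1.12, 0.423 and 0.470 CPM in sham, 0.515, 0.659, 41.0 and 0.772 CPM in FLASH and 0.800, 31.3 and 0.993 CPM in CONV, so that sham replicate 1 was above both CONV values outside the pair. Txk, a TEC family kinase of T cells, had 1.06, 0.586 and 0.639 CPM in sham, 0.273, 0.732, 38.3 and 0.988 CPM in FLASH and 1.41, 26.6 and 1.29 CPM in CONV. Here too all CONV values exceeded all sham values. Themis, needed for thymocyte selection, had 0.881, 0.260 and 0.302 CPM in sham, 0.515, 0.585, 62.2 and 0.648 CPM in FLASH and 0.192, 37.1 and 0.625 CPM in CONV. Ubash3a, a phosphatase family member that dampens receptor signalling, had 0.790, 0.195 and 0.336 CPM in sham, 0.242, 0.293, 27.9 and 0.309 CPM in FLASH and 0.224, 17.9 and 0.588 CPM in CONV. For both, sham replicate 1 was the highest library outside the pair and the groups overlapped. The adaptor Lat ranged from 0.363 to 1.25 CPM in the 8 libraries. Sh2d1a, the adaptor SAP, and Trat1, a receptor-associated transmembrane adaptor, did not exceed 0.257 and 0.154 CPM there.

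The costimulatory receptor Cd28 stood at 1.73, 1.66 and 3.33 CPM in sham, 2.27, 2.78, 69.4 and 4.66 CPM in FLASH and 5.73, 87.5 and 1.36 CPM in CONV, with the highest and the lowest of the 8 libraries both in CONV. Ctla4, an inhibitory receptor of activated and regulatory T cells, had 0.273, 0.163 and 0.0672 CPM in sham, 0, 0.183, 18.2 and 0.124 CPM in FLASH and 0.320, 13.5 and 0.368 CPM in CONV. Its CONV values were all above sham, but outside the pair they rest on 10 counts each against 9, 5 and 2 in sham, and FLASH replicate 1 had none, which at a floor of 3 counts allows up to 0.0908 CPM. Icos, a costimulatory receptor of activated T cells, had 1.21, 1.04 and 1.14 CPM in sham, 0.666, 0.915, 39.1 and 0.988 CPM in FLASH and 0.896, 30.4 and 0.588 CPM in CONV. Outside the pair all 5 irradiated libraries were below all 3 sham libraries, and the share of all genes split in this way was not computed. Il7r, the interleukin-7 receptor that supports survival of naive and memory T cells, had 2.28, 1.46 and 2.02 CPM in sham, 1.09, 1.98, 146 and 1.73 CPM in FLASH and 2.40, 76.1 and 1.29 CPM in CONV, with overlap between all groups. Cd27, a receptor of the TNF receptor family, had 0.304, 0.358 and 0.168 CPM in sham, 0.303, 0.293, 36.9 and 0.834 CPM in FLASH and 0.384, 21.8 and 0.478 CPM in CONV, and its CONV values exceeded all sham values by little. Among the remaining surface genes, the adhesion receptor Cd2 was within 1.51 to 3.01 CPM in the 8 libraries, and the scavenger receptor family members Cd5 and Cd6 within 0.134 to 0.850 CPM and 0.134 to 0.820 CPM, all with overlapping groups.

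Foxp3, the factor that defines regulatory T cells, had 0.395, 0.260 and 0.101 CPM in sham, 0.273, 0.0732, 16.9 and 0.247 CPM in FLASH and 0.0320, 8.92 and 0.0368 CPM in CONV. In counts these were 13, 8 and 3 in sham and 1 and 1 in CONV replicates 1 and 3, the lowest of all libraries. Tcf7, the factor TCF-1 of naive and stem-like T cells, had 1.76, 1.14 and 0.840 CPM in sham, 1.24, 1.02, 184 and 1.48 CPM in FLASH and 1.25, 133 and 1.88 CPM in CONV. Per kilobase Tcf7 was the highest of the 31 genes in both libraries of the pair, at 70.0 and 50.7 CPM per kb, and the fifth in sham at 0.475 ± 0.179 (SD, n = 3). Its relative Lef1 was at only 0.364 to 0.544 CPM in the 8 libraries and at 100 and 57.1 CPM in the pair. Gata3, which directs T helper 2 cells and also acts in skin and mammary epithelium, had 1.67, 2.12 and 1.68 CPM in sham, 1.73, 2.20, 23.2 and 8.89 CPM in FLASH and 1.70, 13.5 and 1.54 CPM in CONV. Outside the pair FLASH replicate 4 was the highest library, and FLASH and CONV both overlapped sham. That library also held 200 CPM summed over 12 keratinocyte and hair follicle genes (12 of 12 detected, Krt5 at 983 and Krt14 at 656 counts), against 8.78 to 39.6 CPM in the other 9 libraries, with Krt5 at 0 to 107 and Krt14 at 0 to 63 counts. Bcl11b, a T cell commitment factor that keratinocytes also express, was likewise highest there outside the pair (4.45 CPM against 0.639 to 2.22 CPM). The part of keratinocyte RNA in these 2 values was not tested.

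The cytotoxic and NK genes had the smallest excess in the pair of any role, 21.0-fold and 14.4-fold at the median. Nkg7, a granule protein of NK and cytotoxic T cells, had 1.34, 1.17 and 0.706 CPM in sham, 0.939, 0.549, 20.8 and 1.48 CPM in FLASH and 0.928, 18.0 and 1.29 CPM in CONV. Prf1, which encodes the pore former perforin, had 0.638, 0.325 and 0.269 CPM in sham, 0.606, 0.549, 10.4 and 1.14 CPM in FLASH and 0.352, 9.15 and 0.919 CPM in CONV. Klrd1, the CD94 chain of NK receptors, had 1.34, 0.748 and 0.840 CPM in sham, 0.394, 0.915, 22.1 and 1.64 CPM in FLASH and 1.15, 14.4 and 1.84 CPM in CONV. The groups overlapped for all 3 outside the pair. Per kilobase Nkg7 and Klrd1 ranked 3 and 4 of the 31 genes in sham, at 1.17 ± 0.358 and 0.761 ± 0.247 CPM per kb (SD, n = 3), behind Cd247 and Cd2 (1.22 ± 0.450). The first 3 of these do not differ beyond their spread. In the pair Nkg7 ranked 9 and 5 and Klrd1 13 and 13.

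The first comparison, FLASH with sham, asks which genes differed after ultra-high dose rate irradiation. With all 10 libraries all 29 members tested had a positive log2 fold change, and none passed: the excess came with 1 FLASH library of 4. The median over the members was 4.30, against 0.03 over all 15266 genes tested, with the largest value for Lef1 (6.02, and 0.15 without FLASH replicate 3) and the smallest for Cd247 (1.42 ± 1.08, SE), and no gene was above or below sham in every FLASH library among the members (background 2.44% above and 2.46% below). Cd4 had 5.2 ± 2.45, Cd8a 5.40 ± 2.74, Cd3e 4.38 ± 2.28, Lck 4.83 ± 2.31, Gata3 2.3 ± 1.11 and Nkg7 2.46 ± 1.53. In edgeR 0 of 29 members passed at an adjusted p under 0.05, as did 0% of all genes, and 0 members had an unadjusted p under 0.05 (0.648% of all genes). DESeq2 called 0 members (0% of all genes) and gave 3 an unadjusted p under 0.05 (1.71%), and limma voom called 0 (0%) and gave 0 (0.498%). Sh2d1a and Trat1 did not pass the filter on low counts with all 10 libraries or with the 8, nor Ctla4 and Foxp3 with the 8, so medians and counts describe the members tested. In limma voom the median was 1.39, and without FLASH replicate 3 alone it was −0.12.

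Without the pair, the levels of the T and NK cell genes overlapped between FLASH and sham for 26 of the 27 members tested. Of these, 10 had positive and 17 negative fold changes, and the median was −0.12, against −0.01 over all 15252 genes. The 3 members with the smallest p on the positive side were Gata3 (1.23 ± 0.60), Prf1 (0.88 ± 0.55) and Cd27 (0.77 ± 0.56), and on the negative side Cd3g (−1.09 ± 0.54), Icos (−0.41 ± 0.32) and Ubash3a (−0.65 ± 0.62). For Gata3 the value was 0.09 without FLASH replicate 4, the library with keratinocyte genes. Cd4 had 0.19 ± 0.48, Cd8a −0.37 ± 0.54, Cd3e −0.27 ± 0.50 and Nkg7 −0.12 ± 0.44. Icos alone of the 27 was below sham in every FLASH library (background 4.65%), and none was above it (5.12%). In edgeR 0 of 27 members passed (background 0%), with 0 at an unadjusted p under 0.05 against 2.52% of all genes. DESeq2 called 0 (0.0262% of all genes) with 1 at an unadjusted p under 0.05 (2.75%), and limma voom 0 (0%) with 0 (2.44%). The direction of the median rests on single libraries: it was 0.28 without sham replicate 1, the sham library with the highest sum over these genes, 0.0083 without FLASH replicate 1 and 0.055 without FLASH replicate 2. Without FLASH replicate 4 Cd27 had 0.088.

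CONV was compared with sham to ask the same of the conventional dose rate. With all 10 libraries all 29 members had positive fold changes (median 4.05, against 0.08 over all genes), from 1.05 ± 1.12 for Cd247 to 5.64 for Lef1, and none passed. Cd4 had 5.13 ± 2.48, Cd8a 5.06 ± 2.74, Cd3e 4.02 ± 2.28, Lck 4.84 ± 2.36, Gata3 1.62 ± 1.12 and Nkg7 2.65 ± 1.59. CONV lay above sham in every library for 6 of 29 members (Cd27, Cd4, Ctla4, Lat, Lck and Txk), where 8.55% of all genes did, and below it for 0 (9.13%). In edgeR 0 members passed (background 0%) and 0 had an unadjusted p under 0.05 (5.82% of all genes). DESeq2 called 0 with 2 at an unadjusted p under 0.05, and limma voom 0 with 0. Over all genes these shares were 0.432% and 9.45% in DESeq2 and 0% and 5.5% in limma voom. In limma voom the median was 2.15, and without CONV replicate 2 alone it was 0.20.

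Without the pair, Cd4, Lck and Txk were higher in the 2 CONV libraries than in all 3 sham libraries and Cd247 and Icos lower, by amounts that did not pass over all genes. Such splits were common: 12.9% of all genes were higher in this way and 13.2% lower. For Cd4 the mean was 2.62 ± 0.373 CPM in 2 CONV libraries against 1.08 ± 0.536 CPM in 3 sham libraries (SD), and its log2 fold change was 1.25 ± 0.52 (edgeR adjusted p = 0.362). Lck had 2.43 ± 0.722 against 1.22 ± 0.496 CPM (0.96 ± 0.51, edgeR adjusted p = 0.462), and Txk 1.35 ± 0.0859 against 0.762 ± 0.262 CPM (0.80 ± 0.54, edgeR adjusted p = 0.566). Cd247 had 4.27 ± 1.30 against 7.91 ± 1.38 CPM (−0.91 ± 0.35, edgeR adjusted p = 0.325). Icos had 0.742 ± 0.218 against 1.13 ± 0.0871 CPM (−0.62 ± 0.37, edgeR adjusted p = 0.508), and Themis, the third on the negative side, −0.28 (0.34 without CONV replicate 1 and 0.50 without sham replicate 1). Cd3e had 0.19 ± 0.56, Cd8a −0.07 ± 0.60 and Nkg7 0.02 ± 0.49. Of 27 members 19 were positive and 8 negative, with a median of 0.19 against 0.01 over all genes, and the median was 0.60 without sham replicate 1 and −0.037 without sham replicate 3. Leaving out CONV replicate 1 gave 0.53, and leaving out CONV replicate 3 gave 0.012. CONV was above sham in both libraries for 5 of 27 members (Cd27, Cd4, Lat, Lck and Txk, background 12.9%) and below it for 2 (Cd247 and Icos, background 13.2%). In edgeR 0 of 27 members passed, against 0.0393% of all genes, and 2 (Cd4 and Cd247) had an unadjusted p under 0.05, against 13.3% of all genes. DESeq2 called 0 with 2 at an unadjusted p under 0.05, and limma voom 0 with 2, against 4.33% called and 14.6% at that p over all genes in DESeq2 and 0.0262% and 12.7% in limma voom. Macrophage genes (10 of 10 detected in all libraries) summed to 1810 CPM in CONV replicate 1, 759 CPM in CONV replicate 3 and 709 to 854 CPM in sham, and B cell and lymph node stroma genes to 37.9 and 20.3 CPM against 15.1 to 17.4 CPM. The macrophage genes did not all go the same way in CONV replicate 3. Fcgr1 had 12.3 and 11.3 CPM in CONV replicates 1 and 3 against 2.15 to 4.59 CPM in sham. In CONV replicate 3 Csf1r (104 CPM against 115 to 145 CPM) and Mertk (39.5 CPM against 43.8 to 58.9 CPM) lay below all sham libraries. The B cell and lymph node stroma genes also went different ways in that library. Cxcl13 had 8.42 CPM there against 2.59 to 3.13 CPM in sham, and Bank1 5.63 CPM against 8.68 to 9.60 CPM. The part of macrophage and B cell RNA in these results was not tested.

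**Figure D2:**
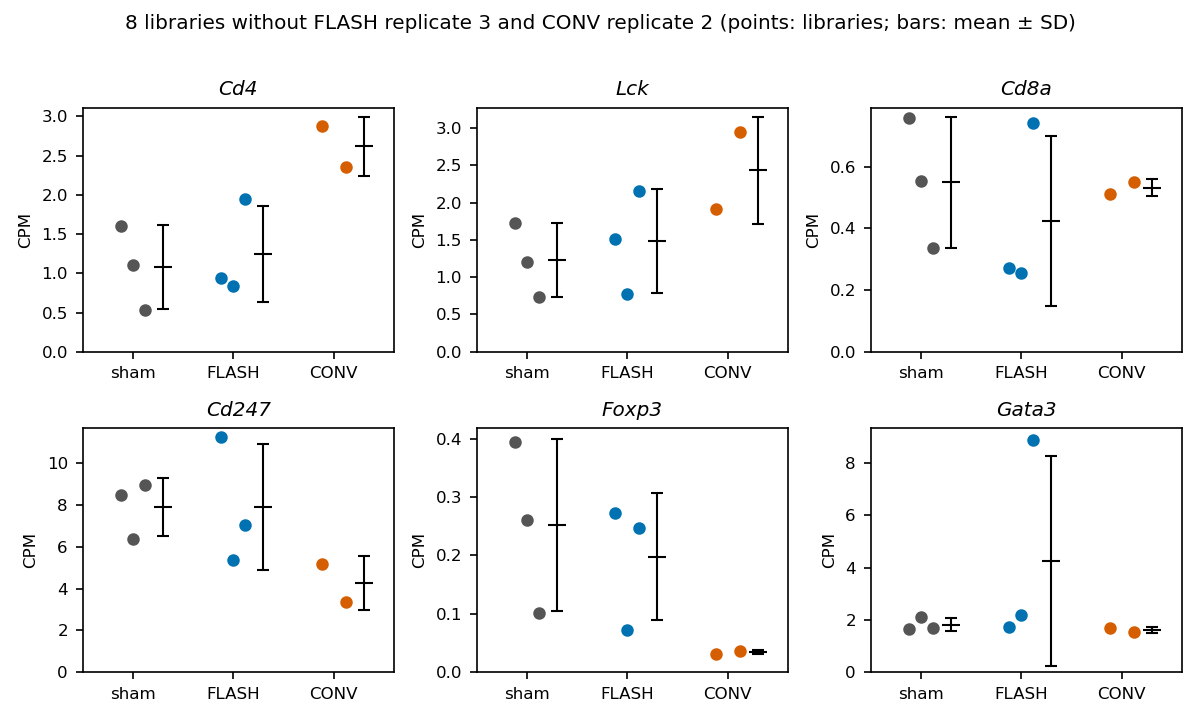
CPM (linear axis from 0) of 6 T and NK cell genes in the 8 libraries without FLASH replicate 3 and CONV replicate 2; points are libraries and bars the mean ± SD of sham (n = 3), FLASH (n = 3) and CONV (n = 2). Cd4 and Lck are higher and Cd247 lower in both CONV libraries than in all sham libraries, where 12.9% of all genes are higher and 13.2% lower. The FLASH mean of Gata3 rests on 1 library at 8.89 CPM. Foxp3 is also lower in both CONV libraries, but on 1 count each, under the floor of 3 counts, against 13, 8 and 3 counts in sham. It did not pass the filter on low counts with these 8 libraries.

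FLASH was compared with CONV to ask whether dose rate mattered at equal dose. With all 10 libraries each group held 1 library rich in these genes, and 19 of 29 members had positive and 10 negative fold changes, with a median of 0.16 against −0.04 over all genes. This median was −4.21 without FLASH replicate 3, 3.93 without CONV replicate 2 and −0.65 in limma voom, and it was also negative without CONV replicate 1 (−0.38) or CONV replicate 3 (−0.34). No member was separated between the groups (background 1.13% in each direction), none of 29 passed in edgeR (background 0%), and none had an unadjusted p under 0.05 in edgeR (2.97% of all genes), DESeq2 (4.74%) or limma voom (2.5%). DESeq2 called 0 of 29 (0.262% of all genes) and limma voom 0 (0%). Without the pair 7 of 27 members were positive and 20 negative, with a median of −0.30 against −0.02 over all genes. Leaving out CONV replicate 3 gave a median of −0.11 (13 positive, 15 negative), CONV replicate 1 −0.56, FLASH replicate 4 −0.54 and FLASH replicate 2 −0.19. Cd247 (0.89 ± 0.35, edgeR adjusted p = 0.324) and Gata3 (1.41 ± 0.69, edgeR adjusted p = 0.421) were higher in all FLASH than in both CONV libraries (2 of 27, background 12.8%). Cd3g (−1.16 ± 0.59), Cd4 (−1.06 ± 0.52), Txk (−1.0 ± 0.54) and Zap70 were lower (4 of 27, background 13.3%). Themis, the third on the positive side, had 0.54 (−0.081 without CONV replicate 1), Cd3e −0.45 ± 0.56, Cd8a −0.30 ± 0.60 and Nkg7 −0.14 ± 0.49. For Gata3 the value was 0.28 without FLASH replicate 4. In edgeR 0 of 27 members passed, against 0.0131% of all genes, and 1 (Cd247) had an unadjusted p under 0.05, against 13.7%. DESeq2 called 0 with 2 at an unadjusted p under 0.05, and limma voom 0 with 2, against 4.37% and 15.2% of all genes in DESeq2 and 0.0197% and 12.9% in limma voom. FLASH and CONV were each compared with the same sham libraries, so those 2 comparisons are not independent of each other.

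**Figure D3:**
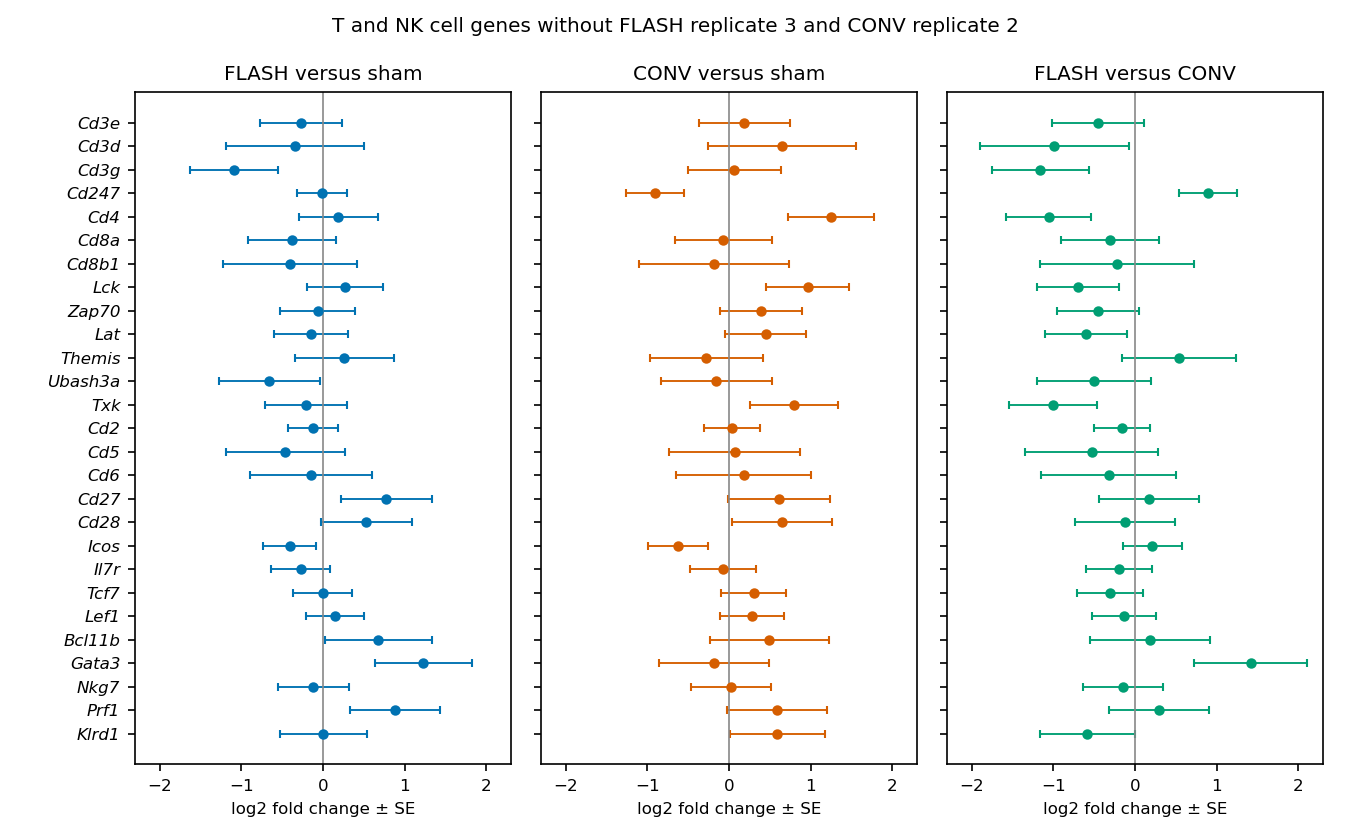
Log2 fold changes (edgeR, bars ± SE) of the 27 T and NK cell genes tested in the 8 libraries without FLASH replicate 3 and CONV replicate 2, for FLASH versus sham, CONV versus sham and FLASH versus CONV. Most bars cross 0, and Cd247 and Cd4 stand on opposite sides of 0 in CONV versus sham (−0.91 and 1.25).

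Ratios of 2 genes within a library do not depend on its depth or scaling, and 4 were compared between the 7 irradiated and the 3 sham libraries, with FLASH and CONV joined because 3 CONV against 3 sham libraries cannot reach a p under 0.05. The share of Cd8a in the counts of Cd4 and Cd8a together was 32.1%, 33.3% and 38.5% in sham replicates 1 to 3. It was 22.5%, 23.3%, 37.1% and 27.6% in FLASH replicates 1 to 4 and 15.1%, 33.3% and 19.0% in CONV replicates 1 to 3. Only the pair reached the sham level among the irradiated libraries, and exact 95% binomial intervals were wide outside the pair (21.9% to 43.6% in sham replicate 1, 8.88% to 23.4% in CONV replicate 1) and narrow within it (35.9% to 38.3% in FLASH replicate 3). The mean log2 ratio of Cd8a to Cd4 was −1.58 ± 0.587 in the irradiated (SD, n = 7) and −0.90 ± 0.219 in the sham libraries (n = 3), a difference of −0.675 (two-sided exact permutation test, p = 0.0917, adjusted over the 4 ratios 0.292). Without the pair all 5 irradiated libraries were below all 3 sham libraries and the difference was −0.953 (exact permutation p = 0.0179, the smallest that 56 relabellings allow, adjusted over the 4 ratios 0.0714).

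Foxp3 counts per Cd3e count were 0.157, 0.182 and 0.143 in sham, 0.310, 0.0690, 0.134 and 0.127 in FLASH and 0.0204, 0.124 and 0.0182 in CONV. CONV replicates 1 and 3 were the lowest of the 10, each with 1 Foxp3 count against 49 and 55 Cd3e counts. The log2 difference of irradiated from sham was −0.919 (exact permutation p = 0.258, adjusted 0.292) with all libraries and −1.12 (p = 0.250, adjusted 0.5, exact permutation) without the pair. Nkg7 per Cd3e was 0.530, 0.818 and 1.00 in sham, 1.07, 0.517, 0.165 and 0.762 in FLASH and 0.592, 0.251 and 0.636 in CONV, lowest in the pair. Its difference was −0.631 (exact permutation p = 0.292, adjusted 0.292), and −0.125 without the pair (exact permutation p = 0.679). Cd3e per Cd79a, a T cell gene set against a B cell gene, was 8.30, 44.0 and 1.75 in sham, 2.42, 3.22, 0.611 and 3.94 in FLASH and 1.53, 0.281 and 55 in CONV. The 2 ratios above 40 each rest on 1 Cd79a count, and the pair was lowest. Its difference was −1.73 (exact permutation p = 0.292, adjusted 0.292), and −0.761 without the pair (exact permutation p = 0.589).

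**Figure D4:**
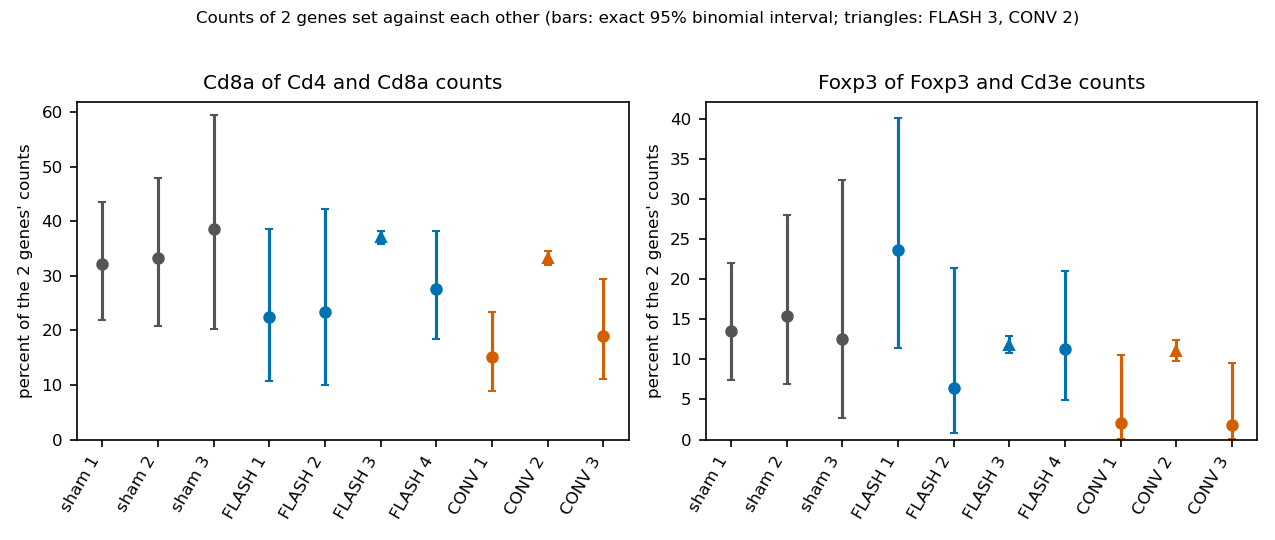
Cd8a as a percent of the Cd4 and Cd8a counts (left) and Foxp3 as a percent of the Foxp3 and Cd3e counts (right) in each of the 10 libraries, with exact 95% binomial intervals; triangles are FLASH replicate 3 and CONV replicate 2. The Cd8a share of the 5 other irradiated libraries (15.1% to 27.6%) lies below the 32.1% to 38.5% of the sham libraries. The interval of each of them overlaps that of every sham library.

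FLASH replicate 3 and CONV replicate 2 were also set against each other and against the other 8 libraries. Of the 31 genes 28 were higher in FLASH replicate 3 with a counting interval above 1 (median ratio 1.5, up to 1.93 for Il7r), 1 was lower (Cd28, 0.793, interval 0.746 to 0.842), and Sh2d1a and Prf1 had intervals that included 1. Of the 18 B cell and lymph node stroma genes 14 were lower in FLASH replicate 3 and 1 higher, with a median ratio of 0.772. These 2 single libraries were compared by their counts alone, which says nothing of the treatments. Relative to Cd3e, Cd8a (0.735 and 0.755 counts per Cd3e count), Cd8b1 (0.391 and 0.388), Tcf7 (1.46 and 1.85) and Lef1 (0.795 and 0.795) were higher in both than in any other library, in which they reached at most 0.476, 0.333, 1.41 and 0.552. Cd247 (0.483 and 0.564), Gata3 (0.185 and 0.188), Nkg7 (0.165 and 0.251), Prf1 (0.0823 and 0.127) and Klrd1 (0.175 and 0.201) were lower in both than in any other library, whose lowest values were 1.65, 0.663, 0.517, 0.224 and 0.448. The other 21 genes did not separate the pair from the rest, and the share of all genes that do was not computed. The margins of Tcf7 and Cd8b1 rest on few counts. The 1.41 of Tcf7 came from FLASH replicate 1, with 41 Tcf7 and 29 Cd3e counts. The 0.333 of Cd8b1 came from sham replicate 3, with 7 Cd8b1 and 21 Cd3e counts. Tcf7 and Lef1 are factors of naive T cells, and the last 3 of the lower genes belong to cytotoxic and NK cells.

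**Figure D5:**
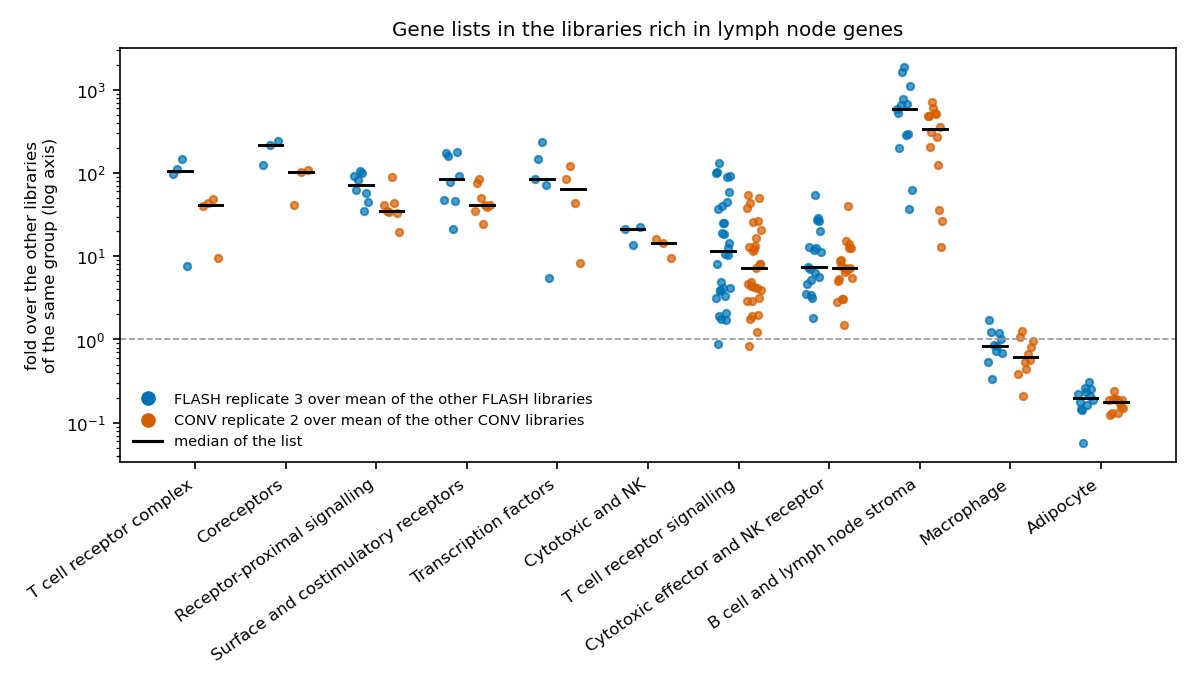
Fold of FLASH replicate 3 and CONV replicate 2 over the mean of the other libraries of their group (log axis), 1 point per gene and a bar at the median, for the roles of the T and NK cell genes and for lists of other genes. Coreceptors stand highest among the roles (219-fold and 102-fold), cytotoxic and NK genes lowest (21.0-fold and 14.4-fold), B cell and lymph node stroma genes above all (580-fold and 337-fold) and adipocyte genes below 1 (0.198 and 0.179).

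Further genes of the same pathways were read from 3 lists. Of 30 other genes of T cell receptor signalling 29 were tested, and with the 8 libraries their median log2 fold change was −0.06 in FLASH versus sham, 0.28 in CONV versus sham and −0.39 in FLASH versus CONV. In edgeR 0 passed in these comparisons, with 0, 5 and 10 of 29 at an unadjusted p under 0.05 (2.52%, 13.3% and 13.7% of all genes), DESeq2 called 0, 3 and 4 (0.0262%, 4.33% and 4.37% of all genes), and limma voom 0 in each (0%, 0.0262% and 0.0197%). Among those in CONV versus sham were the exchange factor Vav1 (0.97 ± 0.23), the adaptors Fyb (1.13 ± 0.27) and Lcp2 (0.66 ± 0.23) and the CD45 phosphatase gene Ptprc (0.93 ± 0.25), with edgeR adjusted p from 0.146 to 0.281. DESeq2 called Vav1, Fyb and Ptprc (adjusted p = 0.0126, 0.00846 and 0.0249), and so did edgeR without CONV replicate 3 (adjusted p = 0.0197, 0.041 and 0.0431), which leaves CONV replicate 1 as the lone CONV library. Without CONV replicate 1, the library with 1810 CPM of macrophage genes, the values of these 4 genes were 0.49, 0.66, 0.28 and 0.47 in the same order. Macrophages, B cells or both also express these genes, and the part of those cells in the values was not tested. With all 10 libraries 0 of these 29 genes passed in edgeR, DESeq2 or limma voom, with 0, 0 and 1 at an unadjusted p under 0.05 in edgeR.

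Of 20 further cytotoxic effector and NK receptor genes 18 were tested, with 8-library medians of 0.03 in FLASH versus sham, 0.36 in CONV versus sham and −0.39 in FLASH versus CONV. None passed in edgeR, DESeq2 or limma voom in either set of libraries, and 0, 2 and 1 of 18 had an unadjusted p under 0.05 in edgeR with the 8 libraries, against the same 2.52%, 13.3% and 13.7% of all genes. The 2 in CONV versus sham were Il18rap, a subunit of the interleukin-18 receptor (1.04 ± 0.33), and Eomes, a factor of cytotoxic lymphocytes (1.48 ± 0.57). Of 17 genes of naive T cell homing, regulatory T cells and checkpoints 14 were tested with the 8 libraries, with medians of −0.03, 0.26 and −0.38. In edgeR 0 passed, with 0, 3 and 2 of 14 at an unadjusted p under 0.05, against 2.52%, 13.3% and 13.7% of all genes. DESeq2 called 0, 0 and 1 of 14, against 0.0262%, 4.33% and 4.37% of all genes, and limma voom 0 in each. Ccr7, a receptor that guides naive T cells to lymph nodes, had 1.13 ± 0.45 in CONV versus sham.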

How the data were processed

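Total RNA of 10 libraries was sequenced after ribosomal RNA depletion with a stranded kit, per the labels' protocols. The deposited files hold raw counts per gene symbol for 1 library each, with no normalization by the authors. The submitters' processing notes name kallisto 0.5.0 and mm10. The sources used here do not give the counter, strand setting and annotation. The last 5 entries of each file name no gene (52.0% to 69.6% of the total) and were left out.

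In R 4.3.3, genes were kept by filterByExpr and scaled by TMM (factors 0.875 to 1.17), and edgeR 4.0.16 fitted its robust quasi-likelihood model with a mean for each group (two-sided tests) to all 10 libraries (15266 genes) and to the 8 whose mean over B cell and lymph node stroma genes lay within 3 log2 units of the highest sham library (15252 genes). The common biological coefficient of variation was 0.543 and 0.284. Benjamini-Hochberg adjustment ran over all genes tested, with a threshold of 0.05. Tests were checked on simulated counts. DESeq2 1.42.0, limma 3.58.1 (voom, with and without quality weights), other scalings and filters, a replicate block, and the omission of each library in turn were the alternatives. Scalings, filters and quality weights with the 8 libraries were added after seeing the data. Ratios of counts (0.5 added) were compared by exact permutation tests and their intervals are Clopper-Pearson at 95%. No 2 libraries of a group agreed within sampling noise. Gene locations, exon lengths and overlaps came from GENCODE M21 (95.7% of symbols, 31 of 31 members), promoters from RefSeq on GRCm38.p6.

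The members and all gene lists were chosen with earlier results of these data known. Values per library are given for 15 members chosen by role and for the 3 members with the smallest p in each direction of each comparison without the pair, and ranges for the rest. Pou2f1 was added after its overlap with Cd247 was seen. Exons of 7 members (Cd3e, Cd247, Themis, Sh2d1a, Foxp3, Lef1 and Gata3) overlap genes on the opposite strand, which counting without strand would not separate. Some genes of the lists are not reported here.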

Additional observations from a re-analysis of the deposited data

Results flagged for a closer look

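In the FLASH group of 4 libraries, replicate 3 lay so far above the other 3 that its gap to the nearest, divided by the range of the group, exceeded the 95% critical value of Dixon's test for 4 samples in 30 of the 31 T and NK cell genes. Chance gives such a gap in about 1 in 20 groups of independent samples, and these genes share the same library. That library had already been set apart in these data by its B cell and lymph node stroma genes. The gaps therefore describe its excess again and are no separate support. The share of all genes with such a gap was not computed. The ratio of gap to range was, among the T cell receptor chains and coreceptors, 0.991 for Cd3e, 0.990 for Cd3d, 0.997 for Cd3g, 0.894 for Cd247, 0.993 for Cd4, 0.995 for Cd8a and 0.993 for Cd8b1. Among the receptor-proximal genes it was 0.990 for Lck, 0.994 for Zap70, 0.986 for Lat, 0.998 for Themis, 0.998 for Ubash3a, 0.947 for Sh2d1a, 0.981 for Txk and 0.978 for Trat1. For the surface receptors it was 0.994 for Cd2, 0.997 for Cd5, 0.994 for Cd6, 0.985 for Cd27, 0.964 for Cd28, 0.992 for Icos, 0.990 for Ctla4 and 0.994 for Il7r. The transcription factors and cytotoxic genes gave 0.988 for Foxp3, 0.997 for Tcf7, 0.999 for Lef1, 0.978 for Bcl11b, 0.954 for Nkg7, 0.939 for Prf1 and 0.943 for Klrd1. Gata3 did not reach the critical value, since FLASH replicate 4 held 8.89 CPM of it.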

How the results depend on the processing

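None of the T and NK cell genes tested passed in any comparison in the 105 alternatives run, and the 4 ratios kept their direction in the 52 alternatives run. Members removed by a filter on low counts were not tested in all of these alternatives. Without the pair the smallest p the libraries allow is 0.0179, so a single ratio could not pass after adjustment over the 4 there (0.0714). Counts over all genes varied more. With all 10 libraries 0 genes passed in each comparison. In CONV versus sham there were 66 in DESeq2, 1 with quality weights, 6 without the pair and 0 to 1 with 1 library left out, and in FLASH versus CONV 40, 1, 2 and 0 to 1. With the 8 libraries 0, 6 and 2 genes passed in FLASH versus sham, CONV versus sham and FLASH versus CONV, and DESeq2 gave 4, 661 and 667. Leaving out 1 library gave 0 to 1134 in CONV versus sham and 0 to 1025 in FLASH versus CONV. The upper ends came without CONV replicate 1, where the spread of the lone CONV library is taken from the other groups. FLASH versus CONV gave 5 with no filter.

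Of 880 alternatives for fold changes of single genes 39 turned the direction, and the cause was not tested. With all 10 libraries the signs of several genes rest on the pair. Without it Cd3e had −0.27, Cd247 −0.014, Cd8a −0.37 and Nkg7 −0.12 in FLASH versus sham, and Cd247 −0.91, Cd8a −0.070 and Gata3 −0.19 in CONV versus sham. With quality weights the values were −0.080 for Cd3e, −0.080 for Cd247, −0.48 for Cd8a and −0.36 for Nkg7 in FLASH versus sham, and −0.49 for Cd247 in CONV versus sham. Leaving out 1 library gave −0.27 to 4.90 for Cd3e, −0.011 to 1.74 for Cd247, −0.38 to 5.81 for Cd8a and −0.12 to 2.84 for Nkg7 in FLASH versus sham. In CONV versus sham it gave −0.89 to 1.51 for Cd247, −0.057 to 5.6 for Cd8a and −0.17 to 2.04 for Gata3. With the 8 libraries it gave −0.70 to 0.27 for Cd3e, −0.30 to 0.59 for Cd4, −0.54 to 0.16 for Nkg7 and −1.0 to 0.076 for Ubash3a in FLASH versus sham. In CONV versus sham the ranges were −0.16 to 0.73 for Cd3e, −0.32 to 0.24 for Cd8a, −0.22 to 0.24 for Nkg7 and −1.32 to 0.50 for Themis, and in FLASH versus CONV −0.56 to 0.13 for Nkg7 and −0.081 to 1.58 for Themis. Quality weights gave Cd8a 0.0032 in CONV versus sham and total counts gave Nkg7 −0.033.

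The labels do not say whether replicate numbers pair the samples. Correlations of same-numbered libraries, taken on deviations from the group mean, ran from −0.756 to 0.261 with all 10 libraries and from −0.596 to 0.472 with the 8. These values cannot decide the question. With all 10 libraries FLASH replicate 3 and CONV replicate 2 shared large deviations (correlation 0.898), and with the 8 the deviations of the 2 CONV libraries mirror each other. With the replicate number as a block 0 members passed, and with the 8 libraries 0 genes passed in CONV versus sham and 0 in FLASH versus CONV. The block gave Cd4 −0.46 and Cd27 −0.0046 in FLASH versus sham and Cd8a 0.040 in CONV versus sham. Standard errors of the members were 1.04 to 2.85 with all 10 libraries and 0.303 to 0.938 with the 8, beside common biological coefficients of variation of 0.543 and 0.284. Differences smaller than these errors were not detectable, and larger ones also did not pass. Examples in CONV versus sham with the 8 libraries were Cd247 (−0.91 ± 0.35) and Cd4 (1.25 ± 0.52). Members outside the pair rest on few counts, and the part of depth in these errors was not tested.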

Other observations

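Dendritic cell genes, which mark the cells that present antigen to T cells, were also abundant in FLASH replicate 3 and CONV replicate 2, where 6 of 7 were higher than in any other library. Over the 7 genes the excess over the other libraries of the group had medians of 17.1-fold and 7.23-fold, against 85.6-fold and 41.2-fold for the T and NK cell genes. All 7 were higher in FLASH replicate 3 than in CONV replicate 2 with counting intervals above 1 (ratios 1.54 to 2.89), as were 28 of 31 T and NK cell genes, while 14 of 18 B cell and lymph node stroma genes were lower. These are counts of 2 libraries with no replicate, and no cause was tested.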
